A study of Mus musculus with 8 samples.

Results

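The insulin-like growth factor (IGF) family was followed in 8 mouse prostate tumours, 4 grown in aged hosts and 4 grown in young hosts. Its 10 members were chosen by name among the 24028 genes of the deposited tables. They are the ligands Igf1 and Igf2, the receptors Igf1r and Igf2r, and the binding proteins Igfbp2, Igfbp3, Igfbp4, Igfbp5, Igfbp6 and Igfbp7. All 10 were found in every table, and all 10 were among the 14575 genes that passed the filter on low counts.

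Every tumour grew from TRAMP-C2 cells, 1 epithelial prostate adenocarcinoma line that came from a TRAMP transgenic mouse, placed orthotopically in the dorsolateral prostate at 1 M cells per host. The aged hosts were male C57BL/6 mice of 20 to 24 months, of which 19 were injected, and the young hosts were male C57BL/6 mice of 4 months, of which 20 were injected. All hosts were syngeneic with the line and had working immune systems, and tumours were taken on day 30 to day 45. The sources used here do not give how the 4 tumours of each age were picked, their weight, their day of harvest or any library batch. Tumours are named by host age and mouse number (aged 46, 47, 50 and 51, young 36, 37, 40 and 43).

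Igf1 and Igf2 are secreted growth factors that signal through the receptor tyrosine kinase Igf1r to insulin receptor substrates, PI3 kinase and AKT. Igf2r, the cation-independent mannose 6-phosphate receptor, takes up Igf2 for breakdown in lysosomes and also sorts lysosomal enzymes. The binding proteins hold IGFs outside the cell and can block or prolong their action, and proteases release the ligand again. In the prostate, stromal cells are a known source of IGFs for the epithelium, and IGF signalling has long been studied in prostate cancer.

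The libraries held 27.1 to 35.7 M fragments, and 3 fragments, used as the floor of detection, stood for 0.084 to 0.111 FPM (fragments per 1 M fragments counted), a limit that covers counting error only. Members were counted far above that floor, from 121 fragments of Igfbp2 in aged 51 to 22230 fragments of Igfbp4 in young 40. The marker lists of epithelium, fibroblasts and macrophages had no gene at 0 in any tumour, but some tumours stood apart. Epithelial markers averaged 1.60 log2 CPM in young 43, against 3.78 to 6.40 in the other 7 tumours. Seminal vesicle markers averaged 5.16 log2 CPM in aged 50 and 11.49 in young 36, the highest of their groups, and skeletal muscle markers averaged 3.88 in aged 51. The bulk RNA mixes injected and host cells, so fewer cells of a type and less RNA per cell cannot be told apart. Each tumour came from a host with a number of its own, and all came from 1 line, so p-values measure the spread between hosts.

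The 250 bases before a RefSeq transcription start (GRCm38.p6) are printed, 5′ to 3′ on the strand of the gene, for 2 pairs of members whose levels ran together over the 8 tumours, Igf1 with Igfbp7 and Igf1r with Igf2r. They cover chr10:87860861-87861110 on the plus strand for Igf1, chr5:77408046-77408295 on the minus strand for Igfbp7, chr7:67952007-67952256 on the plus strand for Igf1r and chr17:12769707-12769956 on the minus strand for Igf2r. The Igf1 window lies inside the gene, which starts at 87858265, and so before a start downstream of the first. The windows of Igfbp7, Igf1r and Igf2r end at the start of the gene. Capitals mark GGGCGG, the core of a GC box, which reads CCGCCC where it lies on the other strand.
Igf1: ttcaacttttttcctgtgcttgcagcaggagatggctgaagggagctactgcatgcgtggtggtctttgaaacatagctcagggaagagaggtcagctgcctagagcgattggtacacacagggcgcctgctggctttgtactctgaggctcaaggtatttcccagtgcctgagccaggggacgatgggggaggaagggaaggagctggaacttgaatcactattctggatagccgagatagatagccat
Igfbp7: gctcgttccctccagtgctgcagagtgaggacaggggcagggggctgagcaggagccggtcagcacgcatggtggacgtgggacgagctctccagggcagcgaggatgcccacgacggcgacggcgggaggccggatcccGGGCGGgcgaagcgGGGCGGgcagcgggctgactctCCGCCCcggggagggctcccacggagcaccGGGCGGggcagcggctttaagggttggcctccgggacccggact
Igf1r: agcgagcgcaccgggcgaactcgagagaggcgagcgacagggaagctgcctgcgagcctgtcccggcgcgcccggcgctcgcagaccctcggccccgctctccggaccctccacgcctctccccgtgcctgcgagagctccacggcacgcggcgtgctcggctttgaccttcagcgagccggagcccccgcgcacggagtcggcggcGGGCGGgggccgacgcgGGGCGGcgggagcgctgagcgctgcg
Igf2r: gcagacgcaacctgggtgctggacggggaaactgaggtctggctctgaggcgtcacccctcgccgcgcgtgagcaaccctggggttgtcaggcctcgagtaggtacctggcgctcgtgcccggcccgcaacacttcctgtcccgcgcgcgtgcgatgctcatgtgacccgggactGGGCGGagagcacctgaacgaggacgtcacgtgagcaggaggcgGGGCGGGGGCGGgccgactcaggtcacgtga
GGGCGG occurs 0 times before Igf1, 4 times before Igfbp7, 2 times before Igf1r and 3 times before Igf2r, and 32.7% of 32851 RefSeq promoter windows of the same length hold it on either strand. The windows hold 5 CpG dinucleotides before Igf1, 26 before Igfbp7, 42 before Igf1r and 27 before Igf2r, against a median of 6 over all windows. TATAAA, the core of a TATA box, was searched on both strands and cannot overlap GGGCGG, and these 4 windows do not hold it. It occurs in the windows of Igfbp4 and Igfbp6, and in 12.4% of all windows. GC content was 52.8% for Igf1, 74.0% for Igfbp7, 77.6% for Igf1r and 69.2% for Igf2r, against a median of 52.4%. The receptors thus both had CpG-rich windows, but this was not particular to them. Igfbp7 had nearly as many CpG as Igf2r, Igfbp3 had 32 and Igfbp4 had 22. Igfbp2, Igfbp5 and Igfbp6 had 7 to 14, and the Igf2 windows 1 to 22. No link between windows and levels was tested. Igf1 and Igfbp7 had unlike windows. For Igf1 this holds for the window inside the gene only, as the bases before its first start were not examined.

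No member passed the test between aged and young hosts. edgeR's quasi-likelihood test with Benjamini-Hochberg adjustment over 14575 genes called 0 members, and 0 genes in all (0%). Of the 10 members 1, Igf2r, had an unadjusted edgeR p under 0.05, as did 728 of all genes (4.99%), of which 387 were lower in aged hosts (2.66%). The aged and young ranges overlapped for all 10 members, while 496 of all genes (3.4%) had ranges that did not overlap. The fitted values of 7 of the 10 members were lower in aged hosts, against 44.7% of all genes, and their median log2 fold change was -0.05, against 0.03 for all genes. DESeq2 and limma voom called 0 members as well, out of 43 and 9 genes called in all, and had 3 and 2 members with an unadjusted p under 0.05, as did 6.05% and 12.1% of all the genes they tested.

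**Figure D1:**
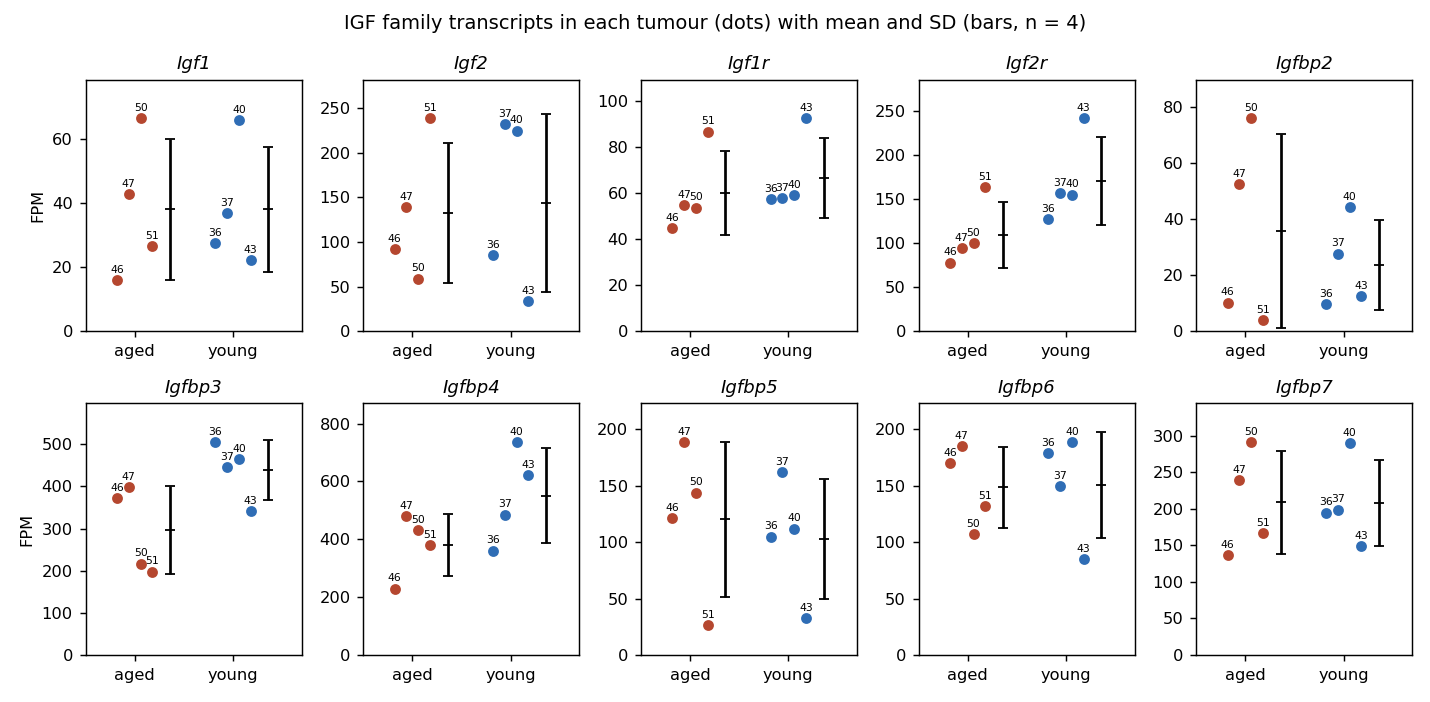
Level of each of the 10 members in each tumour, in FPM on axes that start at 0, with aged hosts (red) left of young hosts (blue), mouse numbers beside the dots and bars for the mean and SD (n = 4). The ranges of the groups overlap in every panel.

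Igf1, the ligand that growth hormone controls in liver and that many stromal cells make, had the same mean in both groups. It stood at 16.0, 42.9, 66.5 and 26.6 FPM in the aged tumours 46, 47, 50 and 51, against 27.4, 36.8, 65.8 and 22.1 FPM in the young tumours 36, 37, 40 and 43. Aged 50 and young 40 were the high tumours of their groups. Aged tumours averaged 38.0 ± 21.9 FPM and young tumours 38.0 ± 19.5 FPM (SD, n = 4 each), and the fitted log2 fold change was -0.005 ± 0.435 (SE, edgeR adjusted p = 0.999). The 95% interval, from -0.99 to 0.98, leaves room for a difference of close to 1 on the log2 scale in either direction. Igf1 lies on chromosome 10 at 87858265 to 87937047 on the plus strand (GRCm38).

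Igf2, the paternally expressed fetal growth factor, was the higher of the ligands and the more uneven. It stood at 92.1, 139, 58.9 and 239 FPM in aged 46, 47, 50 and 51, against 85.7, 232, 225 and 33.6 FPM in young 36, 37, 40 and 43. The highest tumour of all was aged 51 and the lowest young 43, so the ranges overlapped widely. Means and SDs (n = 4 each) were 132 ± 78.6 FPM for aged and 144 ± 99.8 FPM for young hosts, and the fitted log2 fold change was -0.09 ± 0.62 (SE, edgeR adjusted p = 0.989). Its spread within groups was larger than that of 93.4% of tested genes. Igf2 lies on chromosome 7 at 142650768 to 142666816 on the minus strand. In GENCODE vM21 it shares 3596 of its 5723 exon bases with the read-through model Gm49394 and 98 with the antisense gene Igf2os, and the sources used here do not say how fragments were assigned there.

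Igf1r, the signalling receptor, stood at 44.8, 54.7, 53.6 and 86.5 FPM in aged 46, 47, 50 and 51, against 57.2, 57.6, 58.9 and 92.4 FPM in young 36, 37, 40 and 43. Aged 51 and young 43 stood above the other tumours of their groups, and 3 of 4 aged tumours were below the young range. Means and SDs (n = 4 each) were 59.9 ± 18.2 FPM for aged and 66.5 ± 17.3 FPM for young hosts, and the fitted log2 fold change was -0.13 ± 0.25 (SE, edgeR adjusted p = 0.948). Igf1r lies on chromosome 7 at 67952257 to 68233668 on the plus strand.

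Igf2r, the clearance receptor, had the smallest p of the family. It stood at 77.9, 94.7, 99.8 and 164 FPM in aged 46, 47, 50 and 51, against 127, 157, 155 and 242 FPM in young 36, 37, 40 and 43. In the aged group 3 of 4 tumours were below the young range, and aged 51 lay within it. Aged tumours averaged 109 ± 37.6 FPM and young tumours 170 ± 49.5 FPM (SD, n = 4 each). The log2 fold change was -0.62 ± 0.27 (SE) with a 95% interval from -1.234 to -0.011, an unadjusted edgeR p of 0.0468 and an adjusted p of 0.923, at place 690 among all genes. It was -0.92 without aged 51 (edgeR unadjusted p = 0.00267, adjusted p = 0.994) and -0.41 without young 43 (edgeR unadjusted p = 0.149, adjusted p = 0.911). With macrophage or fibroblast markers as a covariate it was -0.76 or -0.61 (edgeR adjusted p = 0.55 and 0.648). After TMM scaling, the mean log2 CPM of the fibroblast markers narrowly did not overlap (7.51 to 8.5 in aged, 8.51 to 9.01 in young tumours). The covariate was scaled by library size without TMM, so these are not its ranges. By summed FPM the fibroblast markers did overlap. Igf2r lies on chromosome 17 at 12682406 to 12769706 on the minus strand.

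The tumours highest for both receptors were also those in which long transcripts as a group were high. In aged 51 and young 43, genes of 5000 bases or more had a median deviation from the mean of all tumours of 0.16 and 0.19 on the log2 scale, and genes under 2000 bases of -0.15 and -0.19. The deposited tables give Igf1r a length of 12856 bases and Igf2r 8929 bases. Igfbp5, at 5854 bases, was lowest in those same tumours. The part of this length pattern in the receptor values was not tested. When both of these tumours were left out, a choice made once the values were known, the Igf2r difference was -0.70 ± 0.11 (SE, edgeR unadjusted p = 5e-04, adjusted p = 0.989).

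Per length, Igf2r exceeded Igf1r 2.50-, 2.49-, 2.68- and 2.72-fold in aged 46, 47, 50 and 51, against 3.21-, 3.92-, 3.80- and 3.77-fold in young 36, 37, 40 and 43. All 4 aged ratios lay below all 4 young ratios. On the log2 FPM scale the ratio averaged 0.85 ± 0.07 for aged and 1.35 ± 0.13 for young hosts (SD, n = 4 each), a difference of -0.50. The exact two-sided permutation p was 0.029, the smallest that 70 assignments allow, and 0.64 after adjustment over the 45 ratios between members. Of those 45 ratios 2 had groups that did not overlap, and chance alone gives this with a probability of 0.029 for each ratio. These 2 ratios were singled out after their values were seen.

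**Figure D2:**
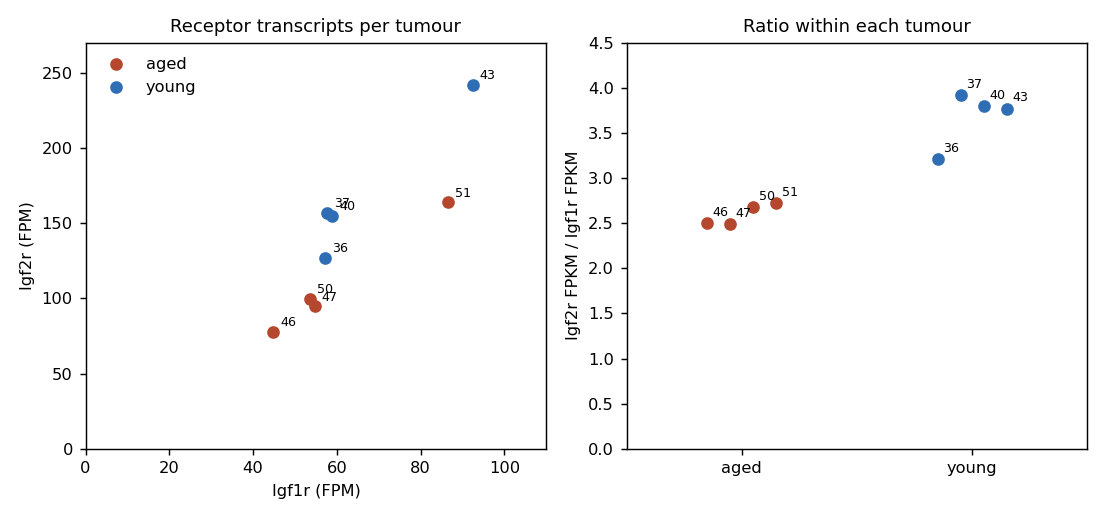
Left, Igf2r against Igf1r in each tumour, in FPM. Right, the ratio of Igf2r to Igf1r per length in each tumour, with aged hosts (red) left of young hosts (blue) and mouse numbers beside the dots. Both receptors are highest in aged 51 and young 43 within their groups, and the aged ratios of 2.49 to 2.72 per length lie below the young ratios of 3.21 to 3.92.

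Igfbp3, the main carrier of IGFs in blood and a binding protein with growth-restraining actions in prostate cells, stood at 373, 398, 217 and 198 FPM in aged 46, 47, 50 and 51, against 506, 445, 464 and 341 FPM in young 36, 37, 40 and 43. Aged 50 and aged 51 were below the young range and the other two aged tumours were inside it. Means and SDs (n = 4 each) were 297 ± 104 FPM for aged and 439 ± 70.3 FPM for young hosts. The fitted log2 fold change was -0.56 ± 0.26 (SE, edgeR unadjusted p = 0.0569, adjusted p = 0.923). Without aged 50 and young 36, which held seminal vesicle transcripts, it was -0.32, and without aged 51 as well, -0.07. For Igfbp3, aged 50 and aged 51 were also the lowest aged tumours and young 36 the highest young tumour. With 1 tumour left out at a time the difference ran from -0.722 to -0.417. The part of seminal vesicle transcripts in the Igfbp3 values was not tested. Igfbp3 lies on chromosome 11 at 7206086 to 7215498 on the minus strand.

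Igfbp4, a binding protein that mostly inhibits IGF action and is cut by the protease Pappa, was the most abundant member per length. It stood at 229, 479, 431 and 380 FPM in aged 46, 47, 50 and 51, against 361, 485, 737 and 622 FPM in young 36, 37, 40 and 43. Only aged 46 was below the young range. Means and SDs (n = 4 each) were 380 ± 108 FPM for aged and 551 ± 164 FPM for young hosts, and the fitted log2 fold change was -0.53 ± 0.25 (SE, edgeR unadjusted p = 0.0614, adjusted p = 0.923). Among fibroblast markers the mean was lower in aged hosts for 8 of 9 genes, with no marker at 0. Their summed level was 7770, 13500, 17900 and 16600 FPM in aged 46, 47, 50 and 51, with aged 46 the lowest by far. In young tumours it ran from 13900 to 25000 FPM, so aged 47 was also slightly below that range. Their r with Igfbp4 was 0.89 (adjusted p = 0.21, exact permutation), but 0.27 without the 2 farthest tumours. After TMM scaling, the mean log2 CPM of the fibroblast list narrowly did not overlap (7.51 to 8.5 in aged, 8.51 to 9.01 in young tumours). The fitted covariate was scaled by library size without TMM, so these are not its ranges. As most fibroblast markers were lower in aged hosts, a fit with that covariate cannot cleanly separate marker level from host age. In that fit the Igfbp4 difference was -0.12, and with macrophage markers as a covariate, of which 7 of 9 were lower in aged hosts, it was -0.39. The part of fibroblasts or macrophages in the Igfbp4 values was not tested. Igfbp4 lies on chromosome 11 at 99040005 to 99052655 on the plus strand.

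Igfbp2, a binding protein that many epithelia make, varied most of the 10 members, 18.9-fold over the tumours. It stood at 10.2, 52.5, 75.9 and 4.0 FPM in aged 46, 47, 50 and 51, against 9.6, 27.6, 44.3 and 12.4 FPM in young 36, 37, 40 and 43. Both extremes were aged tumours. Means and SDs (n = 4 each) were 35.6 ± 34.4 FPM for aged and 23.5 ± 16.0 FPM for young hosts. The log2 fold change was 0.58 ± 0.83 (SE, edgeR adjusted p = 0.934), with a 95% interval from -1.296 to 2.463. Without aged 50 and young 36 it was -0.33. Igfbp2 lies on chromosome 1 at 72824480 to 72852474 on the plus strand.

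Igfbp5, which binds to matrix and has context-dependent actions, is the neighbour of Igfbp2 with a gap of 5590 bases, at 72858065 to 72874865 on the minus strand. It stood at 121, 189, 144 and 26.4 FPM in aged 46, 47, 50 and 51, against 105, 162, 112 and 32.5 FPM in young 36, 37, 40 and 43. Aged 51 and young 43 were low. Aged hosts averaged 120 ± 68.6 FPM and young hosts 103 ± 53.5 FPM (SD, n = 4 each). The log2 fold change was 0.21 ± 0.58 (SE, edgeR adjusted p = 0.965).

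Igfbp6, which prefers Igf2 over Igf1, stood at 170, 185, 107 and 132 FPM in aged 46, 47, 50 and 51, against 179, 150, 189 and 85.0 FPM in young 36, 37, 40 and 43. All 4 aged values were inside the young range. Aged hosts averaged 149 ± 35.3 FPM and young hosts 151 ± 46.7 FPM (SD, n = 4 each), and the log2 fold change was -0.007 ± 0.270 (SE, edgeR adjusted p = 0.998). Its ratio to Igfbp3 per length was 0.863, 0.879, 0.939 and 1.26 in aged 46, 47, 50 and 51, against 0.67, 0.641, 0.77 and 0.473 in young 36, 37, 40 and 43. That ratio was the other one whose groups did not overlap (log2 FPM difference 0.63, exact permutation p = 0.029, adjusted p = 0.64 over 45 ratios). Igfbp6 lies on chromosome 15 at 102144186 to 102149512 on the plus strand.

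Igfbp7, a low-affinity relative that vessels and stroma secrete, stood at 137, 240, 292 and 167 FPM in aged 46, 47, 50 and 51, against 195, 199, 290 and 149 FPM in young 36, 37, 40 and 43. Aged 50 and young 40 were high, as for Igf1. Aged hosts averaged 209 ± 70.6 FPM and young hosts 208 ± 58.7 FPM (SD, n = 4 each). The log2 fold change was 0.003 ± 0.247 (SE, edgeR adjusted p = 0.999), and the 95% interval ran from -0.555 to 0.561. Igfbp7 lies on chromosome 5 at 77349240 to 77408045 on the minus strand, and 85 of its 1209 exon bases overlap Polr2b on the other strand.

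**Figure D3:**
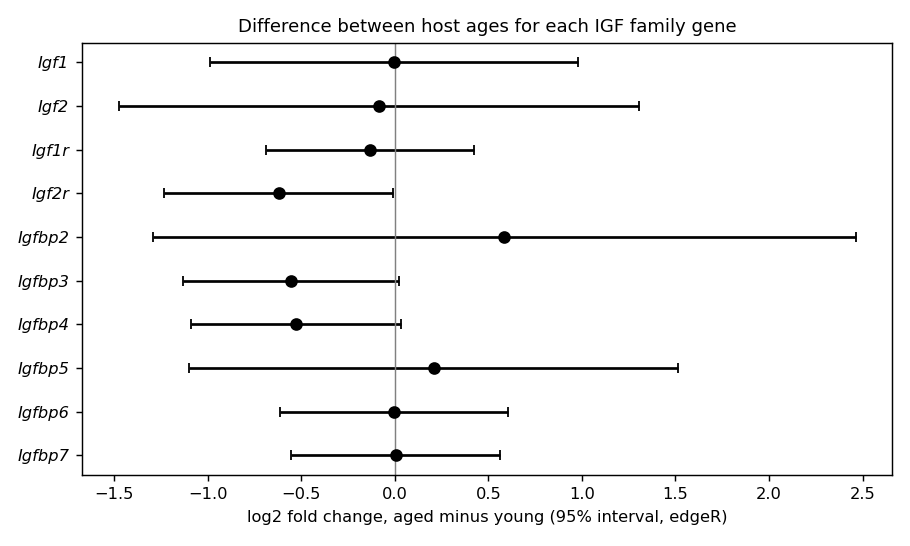
Log2 fold change of each member, aged minus young, with its 95% interval from edgeR. The interval of Igf2r ends at -0.011, and those of the other 9 members include 0.

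Ordered by median FPKM, which divides by the one transcript length that the tables give each gene, Igfbp4 came first with 220 FPKM, then Igfbp7 with 163, Igfbp3 with 158 and Igfbp6 with 124. Igf2 followed with 27.2, Igfbp5 with 19.9, Igf2r with 15.8, Igfbp2 with 15.1, Igf1r with 4.46 and Igf1 with 4.11. The first 4 spanned ranges that overlapped, such as 111 to 357 FPKM for Igfbp4 and 65.9 to 146 for Igfbp6. Igfbp6 exceeded Igf2 in 8 of 8 tumours, and their ranges did not meet. Among the lower members, Igf2r exceeded Igfbp2 in 4 of 8 tumours and Igf1r exceeded Igf1 in 4 of 8.

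The 6 binding proteins summed to 537, 808, 703 and 513 FPKM in aged 46, 47, 50 and 51, against 706, 747, 985 and 645 FPKM in young 36, 37, 40 and 43. The first 4 of the order held 88.4% to 98.5% of the sum. Igfbp4 led in 5 tumours: it held 28.7% in aged 47 and 35.8% in aged 51, and among young hosts 31.4% in tumour 37, 36.2% in tumour 40 and 46.7% in tumour 43. Igfbp3 led in aged 46 with 28.5% and in young 36 with 29.3%, and Igfbp7 led in aged 50 with 34.3%.

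**Figure D4:**
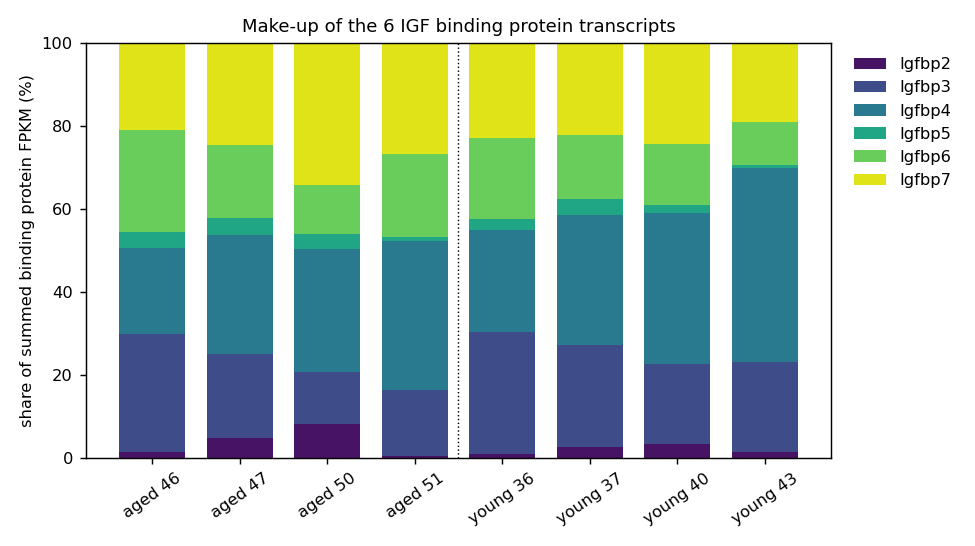
Share of each binding protein in the summed FPKM of the 6, by tumour, with aged hosts left of young hosts. Igfbp3, Igfbp4, Igfbp6 and Igfbp7 hold 88.4% to 98.5% of the sum in every tumour.

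Over the 8 tumours, Igf1 and Igfbp7 ran closely together in log2 CPM. Pearson's r was 0.98 (exact permutation p = 0.00017, adjusted p = 0.0078 over 45 pairs of members), and Spearman's rho was 0.98 (p = 0.0004, adjusted p = 0.018, exact permutation). Pearson's r was 0.93 without the 2 tumours farthest from the median of Igf1, and 0.98 after each group was centred on its mean. Several marker lists ran with both, T cell markers most closely over all 8 tumours. The mean of the T cell markers was 1.05, 2.94, 3.58 and 1.32 log2 CPM in aged 46, 47, 50 and 51, against 2.54, 1.73, 2.98 and 1.26 in young 36, 37, 40 and 43. Their summed level was 15.5 to 92.2 FPM in aged and 19.6 to 64.9 FPM in young tumours, with no marker at 0. Their r with Igfbp7 was 0.94 and rho 1.0 (exact permutation p = 5e-05 for both, adjusted p = 0.005 over 100 relations of a marker list with a member). That r was 0.90 without the 2 farthest tumours and 0.95 after centring. With Igf1 the r was 0.88 (exact permutation p = 0.0053, adjusted p = 0.21) and rho 0.98 (p = 0.0004, adjusted p = 0.02, exact permutation), and r was 0.76 without the 2 farthest tumours. Smooth muscle markers had r = 0.85 with Igf1 and 0.81 with Igfbp7 (adjusted p = 0.21 and 0.26, exact permutation), with 0.63 and 0.61 once the 2 farthest tumours were left out. Macrophage markers had r = 0.73 and 0.76, and fibroblast markers 0.73 and 0.68 (adjusted p = 0.3 to 0.31, exact permutation). Endothelial markers had r = 0.47 and 0.43 (adjusted p = 0.78 for both, exact permutation). Igfbp2 had r = 0.79 with Igf1 and 0.78 with Igfbp7 (adjusted p = 0.26 for both, exact permutation). With T cell markers its r was 0.80 (adjusted p = 0.3, exact permutation), so the pattern was not particular to Igf1 and Igfbp7. After centring, the r of fibroblast markers with Igf1 was 0.90, against 0.88 for T cell markers. The part of these cell types in the values of Igf1 and Igfbp7 was not tested, nor was any difference between the marker lists.

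**Figure D5:**
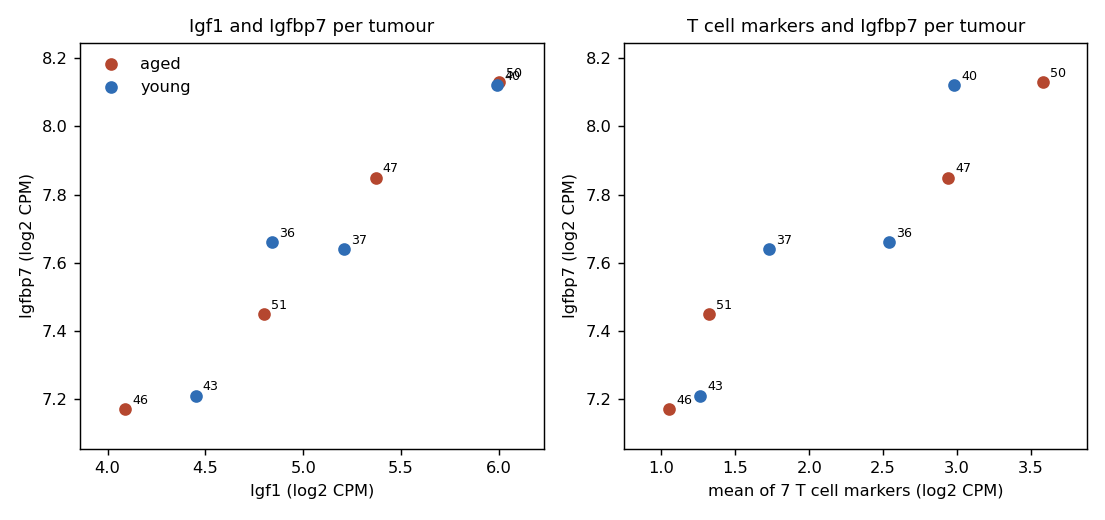
Igfbp7 against Igf1 (left) and against the mean of 7 T cell markers (right) in the 8 tumours, all in log2 CPM, with aged hosts in red, young hosts in blue and mouse numbers beside the dots. Igf1 and Igfbp7 lie close to a line (r = 0.98), with aged and young tumours mixed along it.

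Igf1r and Igf2r had r = 0.86 (exact permutation p = 0.00072, adjusted p = 0.016) and rho = 0.90 (p = 0.0046, adjusted p = 0.1, exact permutation). It was r = 0.90 without the 2 tumours farthest from the median, aged 51 and young 43, and 0.97 after centring each group. The centred value includes those tumours. Without them, Igf1r was 5.57 to 5.72 log2 CPM in aged and 5.83 to 5.90 in young tumours. Igf2r was 6.36 to 6.58 in aged and 7.05 to 7.29 in young tumours. The value of 0.90 thus holds the step between the host ages, and no r was taken with both steps at once. Igf1r against Igfbp5 gave r = -0.94 (exact permutation p = 0.011, adjusted p = 0.17) and rho = -0.64 (p = 0.096, exact permutation), but r = -0.22 without its 2 farthest tumours, aged 51 and young 43, so that relation rests on those tumours. Igfbp4 and fibroblast markers had r = 0.89 (exact permutation p = 0.0076, adjusted p = 0.21) and rho = 0.62 (p = 0.11, exact permutation), but r = 0.27 without the 2 farthest tumours.

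The genes whose log2 CPM ran most closely with each member were searched among 10161 tested genes, as a description over the same 8 libraries. Beside Igfbp7, the nearest to Igf1 were Sod3 (r = 0.968) and Pi16 (r = 0.959), and the nearest to Igfbp7 were Pqlc3, Cd55 and Adrbk1 (0.976 to 0.989). For Igf1r they were Epb41l2, Stxbp5 and Dgcr2 (0.982 to 0.984), and for Igf2r Bcl9l, Irs1 and Xxylt1 (0.960 to 0.966). For Igfbp5 they were Uqcr11, Trappc1 and Vps28 (0.965 to 0.991), and for Igfbp3 Sike1, Trp53i11 and Hilpda (0.947 to 0.984). Igf2 was nearest to Shb, Alg14 and Cxcl1 (0.891 to 0.926), Igfbp2 to Upk1a, Ly6d and Pex16 (0.948 to 0.966), Igfbp4 to Fzd1, Rasgrp3 and Ppp1r9b (0.931 to 0.961), and Igfbp6 to Lamp1, Serpinb2 and Lgals3 (0.941 to 0.957).

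Of 65 other genes, 13 of them from a list of imprinted genes and the rest from the pathway, 55 were tested. Of these, 31 had higher and 24 lower fitted values in aged hosts (55.3% of all genes were higher), and edgeR called 0 after adjustment. Unadjusted edgeR p under 0.05 was found for 4 of them (1 higher, 3 lower), against 4.99% of all genes, and none had groups that did not overlap, against 3.4% of all genes. These shares are near the background. Irs1, the adaptor that carries the signal of Igf1r and the insulin receptor, stood at 23.3, 28.7, 33.2 and 43.4 FPM in aged 46, 47, 50 and 51, against 41.6, 40.8, 49.2 and 59.1 FPM in young 36, 37, 40 and 43. In the aged group 3 of 4 tumours were below the young range, and the log2 fold change was -0.55 ± 0.21 (SE, edgeR unadjusted p = 0.0258, adjusted p = 0.923). Stc1, stanniocalcin, whose family inhibits the protease Pappa, stood at 23.1, 46, 14.7 and 28.2 FPM in those aged tumours, against 51.6, 41.0, 65.8 and 48.7 FPM in those young tumours. Aged 47 was the only aged tumour inside the young range. The log2 fold change of Stc1 was -0.88 ± 0.31 (SE, edgeR unadjusted p = 0.0196, adjusted p = 0.923), but -0.51 by limma voom and -0.57 without aged 50, aged 51 and young 36. Without those 3 tumours Irs1 was -0.91.

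Cdkn1c, an imprinted inhibitor of cyclin-dependent kinases, stood at 0.898, 2.03, 4.07 and 1.82 FPM in aged 46, 47, 50 and 51, against 0.797, 0.813, 1.46 and 0.364 FPM in young 36, 37, 40 and 43 (log2 fold change 1.36 ± 0.54 SE, edgeR unadjusted p = 0.032, adjusted p = 0.923). Ndn, an imprinted member of the MAGE family, stood at 29.7, 36.3, 25.8 and 32.7 FPM in the aged tumours, against 34.9, 41.4, 43.6 and 39.4 FPM in the young ones (-0.34 ± 0.13 SE, edgeR unadjusted p = 0.0322, adjusted p = 0.923). For both, 3 of 4 aged tumours were outside the young range. Cdkn1c was 2.11 with the fibroblast covariate, but 0.90 without aged 50 and young 36 and 0.76 without aged 51 as well.

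No other gene of the pathway or of the imprinted list had an unadjusted p under 0.05. Next to Irs1 among the adaptors by p was Grb14 (-0.69 ± 0.39 SE), and next to Stc1 among the proteases and inhibitors was the IGFBP protease Adamts1 (-0.45 ± 0.25 SE). In lists with no p under 0.05, the 2 with the smallest p were Foxo1 (0.37 ± 0.23) and Foxo3 (-0.27 ± 0.17) of the AKT branch, Socs2 (0.57 ± 0.35) and Stat5b (0.25 ± 0.20) of the growth hormone axis, and Igf2bp3 (0.60 ± 0.48) and Igf2bp2 (0.20 ± 0.47), which bind Igf2 mRNA. The insulin receptor Insr stood at 40.2 to 62.5 FPM in aged and 38.9 to 54.9 FPM in young tumours (0.12 ± 0.19 SE). Values were higher in aged hosts for 6 of 6 growth hormone axis genes, 3 of 3 Igf2 mRNA binders, 2 of 8 adaptors, 9 of 17 PI3 kinase and AKT genes, 4 of 9 proteases and inhibitors, and 6 of 11 imprinted genes, against 55.3% of all genes, and these counts are no test. The filter left out Ins1, Ins2 and Igfbp1, which had 0 fragments in all 8 tumours, as well as Igfbpl1, Igfals, Insrr, Irs3, Irs4, Dlk1 and Phlda2.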

How the data were processed

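RNA was sequenced from 4 aged-host and 4 young-host tumours as 50 bp paired ends. Per the submitters' processing notes, the tools were TopHat2 2.0.12, Picard 2.7.1 and bcl2fastq, and the build was GRCm38 (mm10). How fragments were assigned to genes (program, gene models, strand) is not given in the sources used here. The deposited tables list, per the file headers, a fragment count, a CPM value (headed FPM), an FPKM value and an mRNA length for each of 24028 genes. The deposited CPM and FPKM equal the authors' counts scaled by the library total and by that length. 27 symbols that had turned into dates were restored by Entrez number.

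Counts were tested with edgeR 4.0.16 (filterByExpr with minimum count 10 and minimum total 15, TMM, robust quasi-likelihood, host age as the only term). p-values were adjusted by Benjamini-Hochberg over 14575 genes with a threshold of 0.05. The standard error is the fold change over the square root of F. A prior count of 2 was added for log2 CPM. Ratios and correlations used exact permutation. DESeq2 1.42.0, limma 3.58.1 (voom with sample weights), other scalings and filters, marker covariates and left-out tumours were alternatives. Any 2 libraries differed by a chi-square of at least 44.8 per degree of freedom, so none was a copy. Promoters and positions come from RefSeq, exon overlaps from GENCODE vM21.

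The members and lists were chosen with earlier results of these data known. Named were all members, pathway and imprinted genes with an unadjusted p under 0.05, at least the 2 genes with the smallest p of each list, and the 3 genes with the pattern most like each member.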

Additional observations from a re-analysis of the deposited data

Results flagged for a closer look

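Igf1r in aged 51 was 6.5 log2 CPM, the highest of the 4 aged tumours and far from the other 3 (5.57 to 5.72). In the young group, Igf1r in young 43 was 6.51 log2 CPM, likewise far from the other 3 (5.83 to 5.90). 20 groups of 4 values were examined, 2 per member, and chance singles out about 1 in 20.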

How the results depend on the processing

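No paired analysis was possible because the mouse numbers of the aged and young groups are not shared. Under 21 alternatives edgeR or another tool called no member, and the lowest adjusted p was 0.163 (Igf2r, voom). The number of genes called in all was 43 by DESeq2, 9 by voom and 2 with the fibroblast covariate, against 0. Of 210 member values, 174 kept their direction; those of Igf2r (-1.07 to -0.41), Igfbp3 (-0.75 to -0.07) and Igfbp4 (-0.78 to -0.12) kept it throughout, and 36 values of other members reversed. The cause was not tested. Igf1 was 0 by DESeq2, 0.121 by voom, 0.001 with RLE factors, 0.475 with the macrophage covariate and 0.77 with the fibroblast covariate (unadjusted p = 0.0145, adjusted p = 0.389). With the macrophage and fibroblast covariates Igf2 was 0.037 and 0.148, and Igfbp6 was 0.034 with the first. Igfbp7 was -0.001 with upper quartile factors and -0.008 with no filter. Without aged 50 and young 36, Igfbp2 was -0.33, Igfbp6 0.253 and Igfbp7 -0.188; without aged 51 as well, Igfbp6 was 0.368 and Igfbp7 -0.153. Without aged 51 and young 43, chosen after seeing the data, Igfbp7 was -0.049. With 1 tumour left out at a time, values ran from -0.39 to 0.367 for Igf1, -0.576 to 0.254 for Igf2, -0.396 to 0.063 for Igf1r, -0.081 to 1.059 for Igfbp2, -0.091 to 0.535 for Igfbp5, -0.204 to 0.136 for Igfbp6 and -0.177 to 0.179 for Igfbp7. With 4 tumours a group and 121 to 22230 fragments per member and tumour, the 95% intervals spanned more than 1 on the log2 scale for all 10 members.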

Other observations

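Igf2os is transcribed antisense to Igf2. Per length, Igf2 exceeded Igf2os 15-, 10.1-, 17.9- and 13.4-fold in aged 46, 47, 50 and 51, against 6.37-, 8.09-, 12.9- and 4.94-fold in young 36, 37, 40 and 43. The ranges overlapped, as aged 47 lay below young 40. The imprinted neighbour H19 stood at 0.557 to 1.96 FPM in aged and 0.589 to 2.74 FPM in young tumours. Igfals, the acid-labile subunit of the circulating IGF complex, stood at 1.26 FPM in aged 50 and at 0 to 0.224 FPM in the other 7 tumours.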
